A study of Homo sapiens with 4 samples.

Results

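The complement components and regulators described here are 9 genes, C3, CFB, C1R, C1S, SERPING1, CFI, CD55, CD46 and CD59, taken by symbol from the 58735 genes of the count table. The symbols were listed by name, but with earlier results of these data known. Each matched 1 row, and all 9 passed the filter on low counts that left 15817 genes for testing. RNA was sequenced from HCC1954, an established human breast cancer cell line, in 4 samples. The shCON group holds 2 samples with a scrambled hairpin, and the shZDHHC15 group holds 2 samples with a hairpin against ZDHHC15, a palmitoyltransferase gene. The hairpins were in lentiviral GIPZ vectors, and no other alteration of the cells is given in the sources used here. The labels describe the knockdown as stable in one field and as a transient transfection harvested after 36 h in another. The supplement says that monoclonal cultures were screened for the hairpins. Whether the sequenced cells were a single clone, whether 1 hairpin or several were used, and whether the samples of a group were separate cultures is not given in the sources used here, so p-values measure the spread between these samples, which may be technical.

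Complement is a cascade of plasma proteins that marks and lyses cells and recruits leukocytes. Antibody-bound C1q activates the proteases C1r and C1s, the alternative pathway runs through factor B, and every route meets at C3, whose cleavage coats the target surface. Soluble regulators in plasma and membrane proteins on host cells hold the cascade in check. The liver makes most of the circulating proteins, but epithelial and tumor cells also transcribe many of these genes, and interferons and other cytokines are known inducers of several of them.

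The samples held between 17560982 and 19118704 counts on genes. ZDHHC15 itself had 17617 and 15716 counts in shCON cells and 0 counts in both shZDHHC15 samples. That is a level at least 5890-fold lower against a floor of 3 counts per sample. Why no count of the targeted gene remained was not tested. Positions are those of the deposited table, whose 58735 genes all match GENCODE release 29 on GRCh38. Levels are given as CPM, the share of a sample's counts on a parts-per-1000000 scale after TMM scaling, which is edgeR's normalization. A gene is called when edgeR's quasi-likelihood test gives it a p under 0.05 after Benjamini-Hochberg adjustment over all 15817 genes. The smallest two-sided p of an exact permutation test on 2 samples against 2 is 0.33, and the test used instead borrows its estimate of spread across genes.

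Of the 9 genes, 6 were called higher in shZDHHC15 cells and 0 lower, and 3 were not called. Over all tested genes 21.7% were called higher and 20.3% lower. The same 6 genes had a log2 fold change above 1, against 7.51% of all tested genes. The 6 were the secreted components and regulators C1R, C1S, C3, CFB, CFI and SERPING1, and the 3 not called were the membrane regulators CD46, CD55 and CD59. In bulk RNA such as this, more or fewer cells of a type and more or less RNA per cell cannot be told apart. SERPING1 passed the filter only through its counts in shZDHHC15 cells. Of the remaining 8 genes 5 were called higher, and the same 5 had a log2 fold change above 1. The median log2 fold change of the 9 genes, SERPING1 included, was 2.12. That of all tested genes was 0.015 with the middle 50% between -0.33 and 0.41. The groups did not overlap in CPM for 8 of the 9 genes, CD46 being the exception, but this held for 72.5% of all tested genes.

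**Figure D1:**
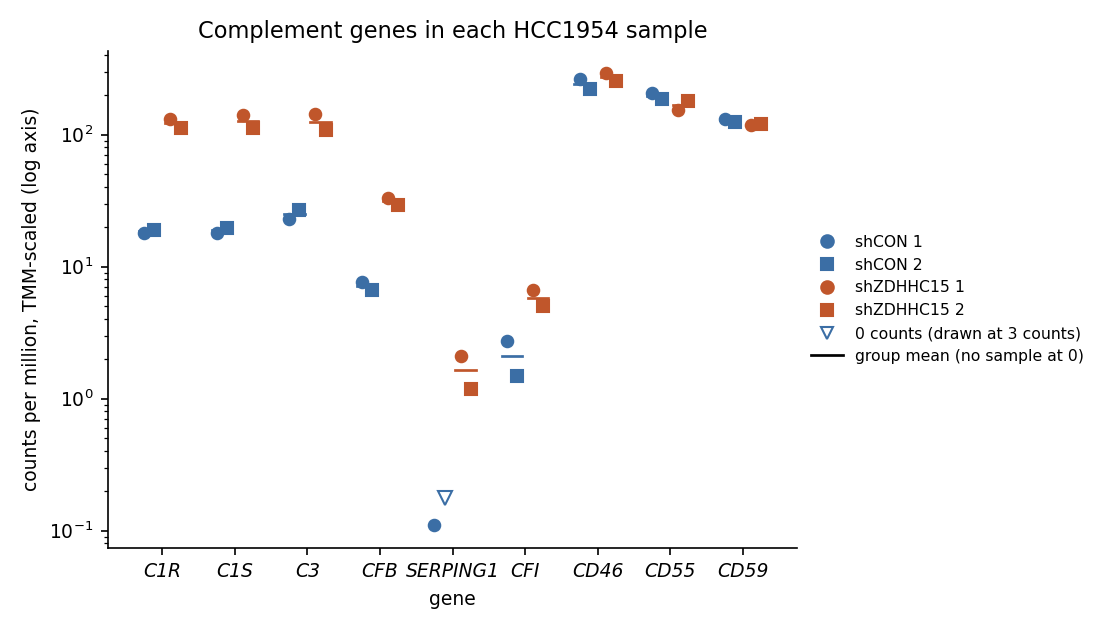
CPM after TMM scaling (log axis) of the 9 complement genes in each of the 4 samples, with circles for replicate 1, squares for replicate 2, lines for group means and an open triangle, drawn at the floor of 3 counts, for the sample without a count. The shZDHHC15 samples of C1R, C1S and C3 all lie above 100 CPM and their shCON samples below 27 CPM, while the groups lie near each other for CD46, CD55 and CD59.

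The C1 proteases C1R and C1S rose most among those of the 9 genes with over 100 counts in every sample. C1R (ENSG00000159403, chromosome 12, 7080199 to 7092607, minus strand) encodes the protease that cleaves itself and then C1s once C1q has bound. It had 327 and 319 counts in shCON cells and 2458 and 2182 counts in shZDHHC15 cells, which is 17.9 and 18.9 CPM against 132 and 111 CPM. Both shZDHHC15 samples were far above both shCON samples, and the samples of each group lay close together. Mean CPM rose 6.60-fold, from 18.4 ± 0.689 in shCON to 122 ± 14.7 in shZDHHC15 cells (SD, n = 2), and the fitted log2 fold change was 2.72 ± 0.122 (SE) with an adjusted p of 3.06e-10. C1S (ENSG00000182326, chromosome 12, 6988259 to 7071032, plus strand) encodes the protease that cleaves C4 and C2. It had 328 and 332 counts in shCON cells and 2608 and 2211 counts in shZDHHC15 cells, or 18.0 and 19.7 against 140.1 and 113 CPM, again without overlap. Its log2 fold change of 2.75 ± 0.129 (SE) came with an adjusted p of 5.19e-10. Of all tested genes, 178 had a higher fold change than C1S and 184 a higher one than C1R. In the annotation some exon bases of both genes belong to a neighbor as well, 672 of the 5885 exon bases of C1R to C1RL and 229 of the 6462 of C1S to EMG1.

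C1R and C1S lie next to each other, 9167 bases apart on opposite strands, and their levels kept an almost fixed ratio. Per kilobase of gene length, C1S stood at 0.913 and 0.948 of C1R in the shCON samples and at 0.966 and 0.923 of C1R in the shZDHHC15 samples. The mean log2 ratio differed between groups by 0.021, less than the SD of 0.038 in shCON cells and of 0.047 in shZDHHC15 cells. A ratio within a sample does not depend on how the libraries are scaled. With 4 samples in 2 groups, genes of like fold change can keep such a ratio wherever they lie. Whether the position of C1R and C1S plays a part was not tested.

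C1R has 2 start sites among the RefSeq promoter windows (GRCh38.p14, 250 bases before to 50 after a start), in which 4 motifs were searched on both strands. These were the interferon-stimulated response element core (GAAA, any 2 bases, GAAA), the gamma-activated site TTCNNNGAA bound by STAT factors, the TEAD core GGAATG, and the NF-κB consensus. Among 35116 windows of all genes they were found in 3.57%, 7.66%, 14.0% and 11.3%, in that order. The stretches below are printed because C1R is among the genes that rose and because TEAD factors are the DNA-binding partners of YAP, which the study followed. Capitals mark the motif letters.
C1R, upstream start, chr12:7092509-7092538, minus strand, TEAD cores: tCATTCCctccaaCATTCCtccgGGAATGg
C1R, downstream start, chr12:7091961-7091989, minus strand, gamma-activated site: gccagtcctaTTCCTGGAAggggagggga
In the first stretch the 3 TEAD cores begin 92, 80 and 70 bases before the start, and in the second the gamma-activated site begins 86 bases before the start. All bases of both stretches lie in annotated exons of C1R. A match of letters is a description of the window and does not show that a factor binds there.

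C3 and CFB, the central component and the protease of the alternative pathway, both rose. C3 (ENSG00000125730, chromosome 19, 6677704 to 6730562, minus strand) had 415 and 454 counts in shCON cells and 2661 and 2110 counts in shZDHHC15 cells, or 22.8 and 26.9 against 143 and 107 CPM. The groups were well apart, with a wider gap between the shZDHHC15 samples than between the shCON samples. Mean CPM was 24.8 ± 2.94 in shCON and 125 ± 25 in shZDHHC15 cells (SD, n = 2), and the fit gave a 5.04-fold rise, or 2.33 ± 0.141 (SE) on the log2 scale, with an adjusted p of 8.72e-09. CFB (ENSG00000243649, chromosome 6, 31945650 to 31952084, plus strand) encodes factor B, which forms the alternative C3 convertase together with a fragment of C3. Its counts were 139 and 112 in shCON cells and 619 and 571 in shZDHHC15 cells, or 7.62 and 6.64 against 33.2 and 29.1 CPM. Each shZDHHC15 sample was over both shCON samples, and the rise was 4.36-fold or 2.12 ± 0.152 (SE) on the log2 scale, with an adjusted p of 6.26e-08. The protein-coding gene AL645922.1 covers 45.0% of the exon bases of CFB, and it received 0 counts in all 4 samples. How reads on such shared exons were counted is not given in the sources used here, so the level of CFB is less certain than its change.

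The promoter window of CFB was the only one of the 11 windows found for 6 of the 9 genes that held all 4 motifs. How many of the 35116 windows of all genes hold all 4 was not counted. The matches in the CFB window are shown because they lie close to each other upstream of a gene that rose.
CFB, interferon-stimulated response element core, chr6:31945950-31945969, plus strand: tgcagTTTCTGTTTCcttga
CFB, NF-κB consensus and gamma-activated site, chr6:31945982-31946011, plus strand: cGGGGCCCTCCcgcttggatgTTCCGGGAA
The response element core begins 140 bases, the NF-κB match 112 bases and the gamma-activated site 92 bases before the start. A TEAD core begins at base 6 after the start, and none of the matches overlap. Both stretches lie in an annotated exon of CFB. Among genes that were not called, CD59 held a gamma-activated site as well, printed for comparison.
CD59, gamma-activated site, chr11:33736589-33736617, minus strand: ccacccggccTTCTCAGAAcctgggccag
This site begins 128 bases before the first of 4 starts of CD59, it falls also within the window of the second start, and no annotated exon covers it. None of the 4 motifs was found in the windows of CD46, CD55 and CFI. Of the genes that rose, C1R, CFB and CFI had a window, and C3, C1S and SERPING1 were not searched. The letters were thus present in windows of C1R and CFB and of CD59, which was not called, and absent from that of CFI, which rose.

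The soluble regulators SERPING1 and CFI rose from low levels. SERPING1 (ENSG00000149131, chromosome 11, 57597387 to 57614853, plus strand) encodes the C1 inhibitor, the serpin that blocks C1r and C1s. It had 2 and 0 counts in shCON cells and 39 and 23 counts in shZDHHC15 cells. The level in shZDHHC15 cells was only 2.09 and 1.17 CPM, and in shCON cells it was at or under the floor of 3 counts. Its summed counts, 62 against 2, gave a ratio of 28.4 after library scaling, with an exact (Clopper-Pearson) 95% interval from 7.55 to 240.1 that covers counting error only. It was called (adjusted p = 0.000233), but the fitted log2 fold change of 4.67 ± 0.799 (SE) depends on the prior count of the fit and on 1 sample, and was 7.89 without shCON replicate 1 and 3.80 without shCON replicate 2.

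CFI (ENSG00000205403, chromosome 4, 109740694 to 109802179, minus strand) encodes factor I, the protease that inactivates C3b and C4b with the help of cofactors. It had 50 and 25 counts in shCON cells and 123 and 99 counts in shZDHHC15 cells, or 2.74 and 1.48 against 6.61 and 5.04 CPM. The groups did not overlap, but the shCON samples were about as far apart in ratio as the nearest samples of the different groups. The log2 fold change was 1.44 ± 0.288 (SE) at an adjusted p of 0.00102. It ranged from 1.07 without shCON replicate 2 to 1.94 without shCON replicate 1. The gene AC126283.2 covers 32.0% of its exon bases and received 0 counts in every sample.

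The membrane regulators were abundant in both groups, and none was called. CD46 (ENSG00000117335, chromosome 1, 207752057 to 207795513, plus strand) encodes a cofactor with which factor I cleaves C3b and C4b on the cell surface. It had 264 and 219.7 CPM in shCON cells and 291 and 256 CPM in shZDHHC15 cells, so the groups overlapped. Its log2 fold change was 0.18 with a 95% interval from -0.047 to 0.40 (adjusted p = 0.194). It ranged from 0.039 without shCON replicate 2 to 0.28 without shCON replicate 1. CD55 (ENSG00000196352, chromosome 1, 207321376 to 207386804, plus strand) encodes decay-accelerating factor, which takes C3 convertases apart. It had 205 and 184 CPM in shCON cells and 154 and 179 CPM in shZDHHC15 cells, all shZDHHC15 values being under the shCON values. Its log2 fold change was -0.22 with a 95% interval from -0.44 to -0.0066 before adjustment (adjusted p = 0.0919). It ranged from -0.34 without shZDHHC15 replicate 2 to -0.12 without shZDHHC15 replicate 1. CD59 (ENSG00000085063, chromosome 11, 33703010 to 33736491, minus strand) encodes the protein that stops assembly of the membrane attack complex. It had 132 and 125 CPM in shCON cells and 117 and 119.5 CPM in shZDHHC15 cells, which did not overlap but lay close. The fit gave a log2 fold change of -0.12, a 95% interval from -0.32 to 0.083 and an adjusted p of 0.342. The 3 unadjusted intervals thus reach no further than 0.44 from 0 on the log2 scale, whereas the lower bound was 2.03 for C3 and 0.83 for CFI.

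**Figure D2:**
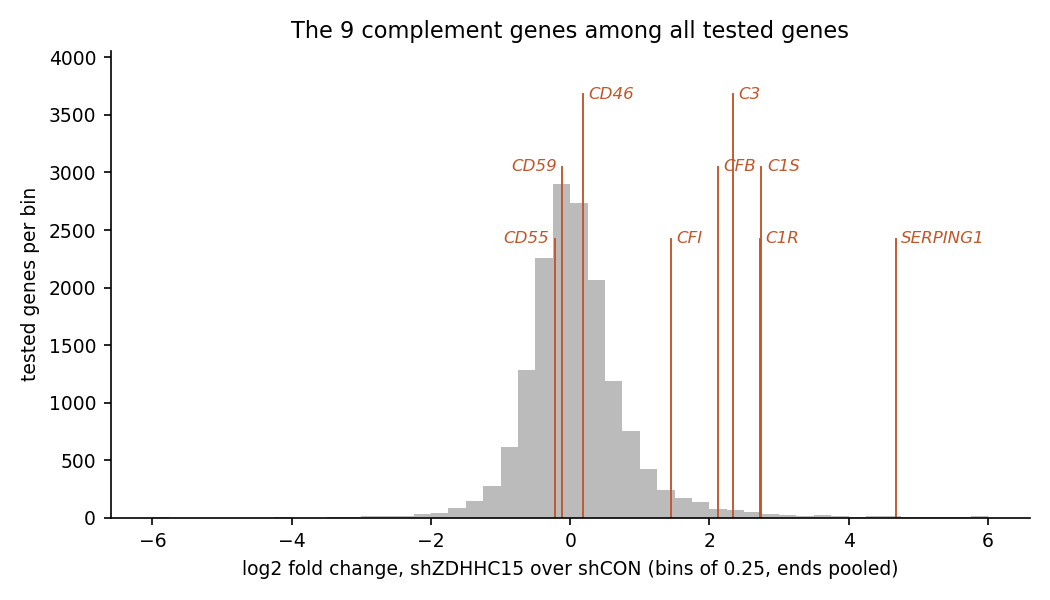
Number of tested genes per bin of log2 fold change in shZDHHC15 over shCON cells (bins of 0.25, genes past the ends pooled into the end bins), with a vertical line at the value of each of the 9 complement genes. CD55, CD59 and CD46 lie in the bulk of the 15817 genes, CFI at 1.44, CFB, C3, C1R and C1S between 2.12 and 2.75, and SERPING1 at 4.67.

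Levels were compared between genes as CPM per kilobase of the deposited gene length. In shCON cells the order was CD55 (32.9 ± 2.41, SD, n = 2), CD46 (27.8 ± 3.59), CD59 (12.4 ± 0.506), C1R (3.13 ± 0.117), C3 (2.98 ± 0.352), C1S (2.92 ± 0.185), CFB (1.43 ± 0.139), CFI (0.433 ± 0.183) and SERPING1, with 0.030 and 0 in its samples. C1R, C3 and C1S overlapped in their samples, and the other neighbors in this order did not. In shZDHHC15 cells CD46 (31.4 ± 2.79) and CD55 (28.2 ± 3.05) still led and overlapped, followed by C1R (20.7 ± 2.51), C1S (19.6 ± 3.00), C3 (15.0 ± 3.01), CD59 (11.4 ± 0.152), CFB (6.24 ± 0.588), CFI (1.19 ± 0.227) and SERPING1 (0.453 ± 0.181). Per kilobase, C1R, C1S and C3 thus stood under CD59 in both shCON samples and over CD59 in both shZDHHC15 samples. This order depends on the division by gene length. In CPM alone the 3 genes were over CD59 in shZDHHC15 replicate 1 only. In shZDHHC15 replicate 2, C1R had 111, C1S 113 and C3 107 CPM, under CD59 with 119.5 CPM.

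**Figure D3:**
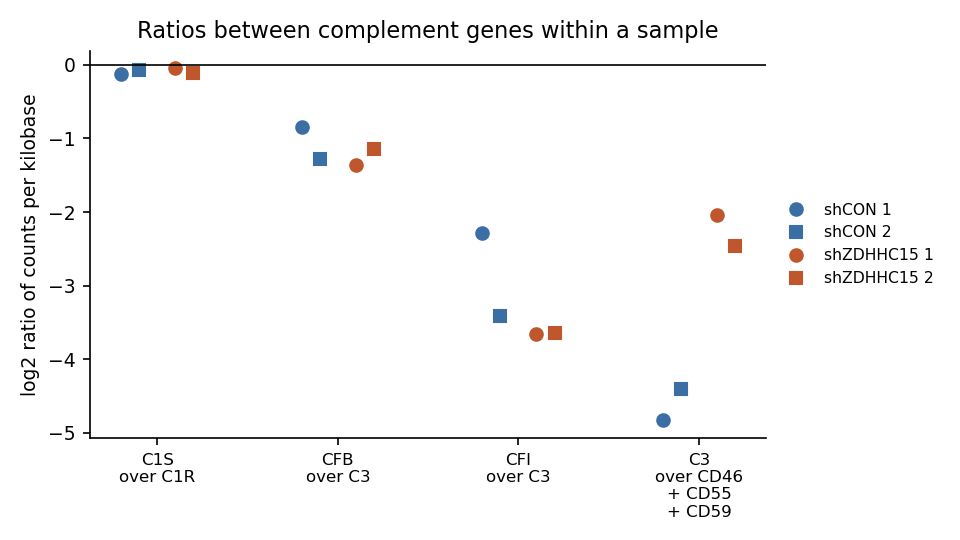
Log2 ratios between complement genes within each sample, per kilobase of gene length, with circles for replicate 1 and squares for replicate 2. C1S over C1R stays near 0 in all 4 samples, while C3 over the sum of CD46, CD55 and CD59 is near -4.8 and -4.4 in shCON cells and near -2.0 and -2.5 in shZDHHC15 cells.

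The ratio of C3 to the membrane regulators together changed with the knockdown. The summed level of CD46, CD55 and CD59 was 77.7 and 68.5 CPM per kilobase in shCON cells and 70.7 and 71.3 in shZDHHC15 cells, so the groups overlapped. C3 amounted to 0.0352 and 0.0472 of that sum in shCON cells and to 0.243 and 0.181 of it in shZDHHC15 cells, a difference of 2.36 in the mean log2 ratio where the SD in each group was 0.30. CD46 took 39.0% and 36.8% of the sum in shCON cells and 47.2% and 41.3% in shZDHHC15 cells, and CD55 took 44.6% and 45.6% against 36.8% and 42.6%, so that CD46 exceeded CD55 in shZDHHC15 replicate 1 only. CFB over C3 had a mean log2 ratio of -1.06 ± 0.312 in shCON cells and -1.26 ± 0.154 in shZDHHC15 cells (SD, n = 2), a difference within the spread. For CFI over C3 the mean log2 ratio was -2.85 ± 0.799 in shCON cells and -3.65 ± 0.0153 in shZDHHC15 cells. The difference of -0.81 was smaller than the gap between the shCON samples, which lay at -2.28 and -3.41. These ratios concern RNA, and protein was not measured here.

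A wider list of 55 complement genes, written from general knowledge and ordered by role, held 24 tested genes, of which 10 were called higher, 4 lower and 10 in neither direction. Its median log2 fold change was 0.29. Without the 9 genes above, 15 tested genes remained, with 4 higher, 4 lower and a median of 0.075. Outside the 9 genes calls fell in both directions, as they did over all tested genes, of which 21.7% were higher and 20.3% lower. Only 18 of the 24 genes reached the filter's level of 0.545 CPM in both samples of each group. C2, C4A, C4B and SERPING1 reached it in shZDHHC15 cells alone and C4BPB in shCON cells alone. The filter itself thus favors a difference in that direction for these genes. Among them, C4A and C4B belong to the genes called higher outside the 9 genes, and C4BPB to those called lower.

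**Figure D4:**
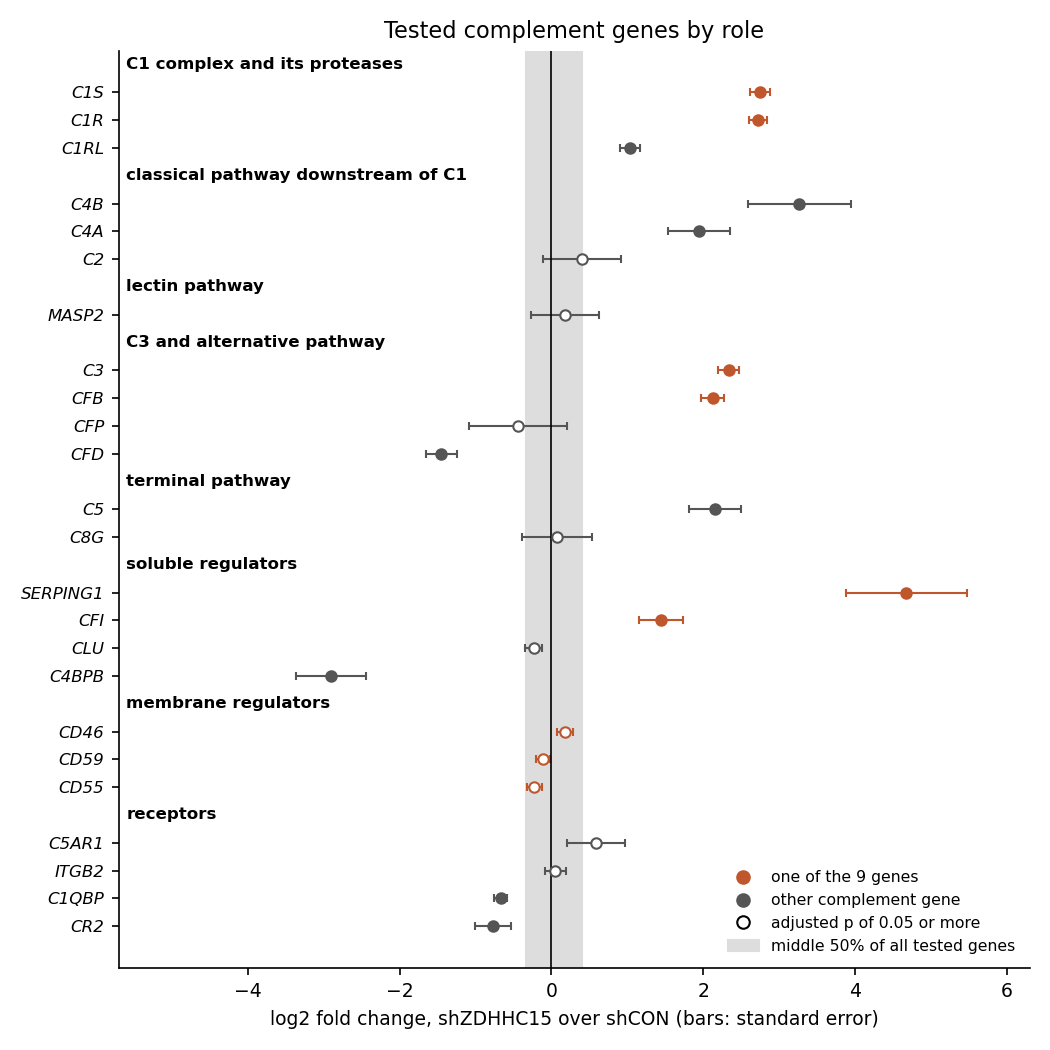
Log2 fold change with its standard error for the 24 tested complement genes, grouped by role, with the 9 genes in orange, other complement genes in grey, open symbols for an adjusted p of 0.05 or more and a grey band for the middle 50% of all tested genes. Secreted components and regulators spread from -2.91 (C4BPB) to 4.67 (SERPING1), while CD46, CD55 and CD59 stay inside the band. C4BPB reached the filter's level in shCON cells alone and SERPING1 in shZDHHC15 cells alone.

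In the C1 complex, the genes of the recognition subunit, C1QA, C1QB and C1QC, had 0 counts in all 4 samples, which allows up to 3 counts in each. C1RL, a C1r-like protease gene whose exons overlap C1R, rose by 1.04 ± 0.131 (SE) on the log2 scale with an adjusted p of 2.02e-05, from 262 and 240 to 573 and 551 counts. The bases shared with C1R are 13.4% of the exon bases of C1RL. Reads of C1R may thus be part of this rise, which was not tested. Downstream of C1, C4A went from 10 and 8 to 38 and 38 counts (log2 fold change 1.94, adjusted p = 0.00158) and C4B from 3 and 3 to 46 and 19 counts (adjusted p = 0.00133). These genes encode the 2 forms of C4 and share a stretch of 5427 bases at 99.8% identity, so that reads cannot be told apart with certainty between them. C2, the partner of C4 in the classical C3 convertase, had 9 and 9 counts against 10 and 16 and was not called (adjusted p = 0.568).

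In the alternative pathway CFD went against C3 and CFB. CFD encodes factor D, the protease that cleaves factor B, and fell from 162 and 177 counts to 62 and 73, by 1.45 log2 units at an adjusted p of 5.7e-05 and an SE of 0.205. CFP, which encodes properdin, stayed at 5 to 15 counts and was not called (adjusted p = 0.618). In the terminal pathway C5 rose from 14 and 12 to 61 and 66 counts (log2 fold change 2.15 ± 0.341, SE, adjusted p = 0.000158). C8G was not called (adjusted p = 0.916), and C6, C7, C8A, C8B and C9 had at most 3 counts in any sample. Of 8 genes of the lectin pathway only MASP2 was tested, and it was not called (adjusted p = 0.781).

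Among the other soluble regulators, C4BPB fell and CLU was not called. C4BPB, the beta chain of the C4b-binding protein, went from 38 and 46 to 4 and 8 counts (log2 fold change -2.91 ± 0.459, SE, adjusted p = 0.000154), while C4BPA, the gene of its alpha chain, had 3 counts in 1 sample and 0 in the others. CLU, which encodes clusterin, was not called (log2 fold change -0.23, adjusted p = 0.110), and its log2 fold change was -0.33 without shCON replicate 1. Of the receptors and binding proteins, C1QBP had a log2 fold change of -0.67 ± 0.0889 (SE, adjusted p = 3.28e-05) and CR2 one of -0.77 ± 0.235 (SE, adjusted p = 0.0163). The call of CR2 was lost with DESeq2 (adjusted p = 0.0650) and in some fits that left out 1 sample. Its log2 fold change ranged from -0.92 without shCON replicate 1 to -0.65 without shCON replicate 2. ITGB2 (adjusted p = 0.790) and C5AR1 (adjusted p = 0.239) were not called.

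Genes that lie together on a chromosome did not move together in each case. Within 1000000 bases of CD46 and CD55 on chromosome 1, CR2 and C4BPB fell while CD46 and CD55 were not called, and CR1 and C4BPA were too low to be tested. CFB lies 29940 bases from C4A and 62711 bases from C4B, which both rose, and next to C2, which was not called. On chromosome 12 the 3 genes C1S, C1R and C1RL all rose, by 2.75, 2.72 and 1.04 on the log2 scale. C1RL shares exon bases with C1R, so its rise may not be separate from that of C1R.

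Likeness to other genes was measured as the root mean square difference of log2 CPM, centered on each gene's mean, over the 4 samples and 12956 other protein-coding genes. The pair nearest to C1S was C1R (0.0319) and the chemokine gene CCL5 (0.0409), and the nearest to C1R were CCL5 (0.00941) and C1S (0.0319). CFB lay nearest to DTX3L (0.0409) and to SOD2, the mitochondrial superoxide dismutase gene (0.0441). C3 was nearest to GRIK3 (0.0513) and ZCCHC2 (0.0543), with CFB in place 61 and C1R in place 73. The cystine transporter gene SLC7A11 (0.0700) and ATRNL1 (0.0232) were nearest to CFI, and ADAMTS4 (0.126) and OLFM4 (0.177) to SERPING1. CD46 was nearest to TMEM263 and PDS5A, CD55 to CCDC50 and P2RX5-TAX1BP3, and CD59 to ZNF317 and NDST1, all within 0.0145. With 4 samples in 2 groups this measure mostly reflects the size of the fold change.

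The cells carried the marks of their line, with ERBB2 between 92598 and 101910 counts per sample. Of 9 markers of the epithelial tumor line 7 were called lower and 1 higher, and their summed level was 21880 to 23772 CPM in shCON and 13298 to 13728 CPM in shZDHHC15 cells. Markers of other cell types, several of which make complement, ranged from 0 to 1503 counts per sample. Of 8 hepatocyte markers only SERPINA1 was tested, and it was not called, with ALB at 1 count or fewer, TTR and FGA at 0 and a summed level of 2.37 to 3.07 CPM in shCON and 3.31 to 4.73 CPM in shZDHHC15 cells. For 10 fibroblast markers the sum was 26.4 to 33.2 against 37.1 to 41.0 CPM, with COL1A1 called higher, FAP not called at 320 to 559 counts, and LUM and DPT at 0. Of 18 leukocyte markers 2 were called higher (CD14 and LCP1) and 2 lower (CSF1R and CORO1A), with LCP1 at 735 to 1503 counts, PTPRC at 1 to 4 counts and 7 markers at 0, and a sum of 78.7 to 81.8 against 92.8 to 102.7 CPM. PECAM1, an adhesion molecule gene that marks endothelial cells, rose from 75 and 56 to 666 and 405 counts, with a log2 fold change of 2.91 ± 0.256 (SE) and an adjusted p of 5.44e-07, beside 2.72 for C1R and 2.75 for C1S. Of the 6 endothelial markers CDH5 was also called higher (807 and 780 to 1224 and 1487 counts) and KDR lower, with EMCN at 0 and VWF at 0 to 7 counts, and a sum of 57.5 in both shCON samples against 101.4 to 107.7 CPM. The part of these markers in the complement results was not tested.

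**Figure D5:**
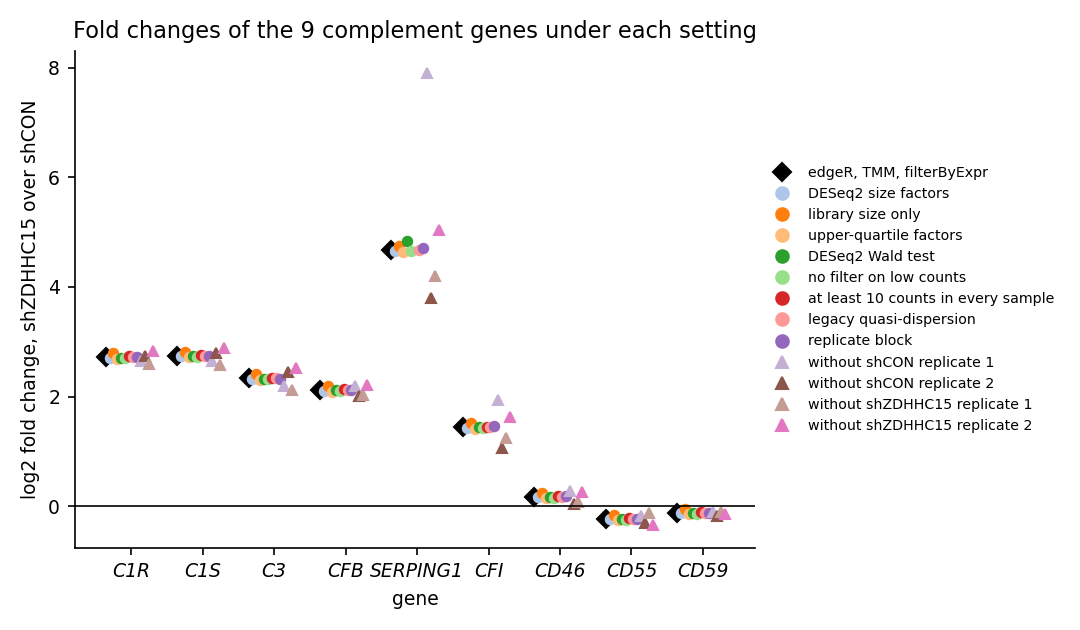
Log2 fold change in shZDHHC15 over shCON cells of the 9 complement genes under each setting, with black diamonds for the reported fit, circles for other scalings, filters and tests and triangles for fits that leave out 1 sample. C1R, C1S, C3 and CFB stay above 2.0 under every setting shown, CFI between 1.07 and 1.94, CD46, CD55 and CD59 within 0.35 of 0, and SERPING1 spreads from 3.80 to 7.89.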

How the data were processed

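The authors deposited 1 table of raw counts per gene for the 4 samples, not normalized, with gene positions and gene lengths, from total RNA libraries made with the NEBNext Ultra kit. The submitters' processing notes name HISAT2, StringTie, SAMtools and hg38. The counting tool, its strand setting and the treatment of shared exons are not given in the sources used here. Levels of genes with overlapping exons can therefore depend on how shared reads were assigned. All 4 count columns were used, and 0 were left out.

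Counts were filtered with filterByExpr, scaled by TMM and compared with edgeR 4.0.16 (limma 3.58.1, R 4.3.3) by its quasi-likelihood test (glmQLFTest after glmQLFit with legacy = FALSE), adjusting by Benjamini-Hochberg over 15817 genes. Standard errors were derived from the F statistic, and log2 CPM used a prior count of 2. DESeq2 1.42.0, other scalings, other filters, a replicate block and leaving out each sample were the alternatives. The scripts were tested on simulated data. To see whether a library stood in the table more than once, samples of 1 group were compared, and they differed by more than counting noise (chi-square of 8.32 and 6.79 per degree of freedom), which does not show that they were separate cultures. Exon overlaps came from GENCODE release 29, near-identical stretches (at least 150 bases, 97% identity) from BLAST 2.17.0, and promoter windows from RefSeq.

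The genes, lists, motifs and tests were chosen with earlier results of these data known. The rule for named genes took the 9 genes, the tested genes of the wider list, ZDHHC15, and the 2 genes most like each of the 9. Untested genes of the list, genes with shared exons and marker genes are named beside them, some chosen after their values were seen. Some genes of the wider list were taken out of it and are not reported here.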

Additional observations from a re-analysis of the deposited data

How the results depend on the processing

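Each of the 12 alternatives kept C1R, C1S, C3, CFB and CFI called higher, and SERPING1 was called in the 11 in which it was tested. The number of the 9 genes called higher was 6, and 5 to 6 under the other scalings, filters and tests, where 5 came from requiring at least 10 counts in every sample, which drops SERPING1. The number called lower was 0, and 1 with a replicate block (CD55, adjusted p = 0.0497). When samples were omitted one by one, the lowest log2 fold change among the 6 genes called higher was 1.07, that of CFI. In these fits the lone sample of a group is assumed to vary like the others. Their adjusted p-values are not comparable with those of the reported fit. With no filter on low counts, 2282 of 30168 genes were called higher, against 3427 of 15817. Values turned in sign, without a call, when 1 sample was omitted, for C8G (-0.82 to 0.60), ITGB2 (-0.12 to 0.20), CFP (-1.11 to 0.59) and MASP2 (-0.26 to 0.52), and the cause was not tested. The deviations of same-numbered samples had a correlation of 0.034 over 15817 genes. With 2 samples per group this cannot show whether the replicate numbers pair the samples. Under the replicate block 3723 of all tested genes were called higher and 3502 lower, against 3427 and 3217 without it. Besides CD55, the block changed no call among the 9 genes. Another scaling moved the median of all genes by at most 0.074 (log2). Leaving out the division by gene length moved each ratio itself, and C1S over C1R turned from below to above 1 in every sample. In ratios of single genes the lengths cancel in the difference between groups. For C3 over the summed membrane regulators that difference was 2.34 without the division and 2.36 with it. At this depth a count of 0 allows up to 0.153 to 0.178 CPM, counting error only.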

Other observations

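Of the 55 complement genes listed, 31 were too low to be tested, of which 24 had at most 3 counts in every sample and 13 had 0 counts throughout. MASP1, a lectin pathway protease gene, had 3 and 3 counts in shCON cells and 19 and 7 in shZDHHC15 cells. C3AR1, the gene of the receptor for the C3a fragment, had 0 counts throughout shCON cells, then 3 and 7 in shZDHHC15 cells. VTN, which encodes vitronectin, had 11 and 3 counts against 4 and 1. ITGAM, a chain of complement receptor 3, had 5 and 8 counts against 7 and 4. These values were not tested, and differences of this size are near the counting limit.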
